A study of Mus musculus with 4 samples.

Results

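The open regions described here lay in the DNA between genes of the developing mouse lung, 2 to 100 kb from the nearest end of a protein-coding gene. Peaks of 4 ATAC-seq libraries on the 19 autosomes and X were merged where they overlapped or adjoined, which gave 307423 merged regions. Of these, 66171 held a peak of every library. A region was kept if it was also under 5000 bp wide, outside all protein-coding genes and within that distance range, and 17563 regions (26.5% of those open in every library) met the rule. The other regions open in every library comprised 24453 inside genes and at least 2 kb from any gene end, 14480 at gene ends, 5285 in gene deserts over 100 kb from any gene and 4390 that were too wide.

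The tissue was whole lung of wild-type mouse embryos at E15.5, and no strain, treatment or litter was given in the labels used here. All 4 libraries formed 1 group: the labels state snap-freezing of the lungs and 60000 nuclei treated with Tn5, a transposase that inserts sequencing adapters into accessible DNA. The series concerns genes acting downstream of HOXA5, a homeodomain factor of the lung mesenchyme, and this assay mapped where chromatin was open. There was no second condition, so comparisons were made between classes of regions within each library, and each SD over the 4 libraries covers only their own spread, which may be technical.

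DNA between genes can hold enhancers, which are bound by transcription factors and raise transcription of a gene that may lie far away on the same chromosome. Enhancers are commonly found as open chromatin, but open chromatin also marks promoters of non-coding RNAs, insulators and other bound sites. The nearest gene is a position and not a known target. In the branching lung, epithelial tips and the surrounding mesenchyme exchange signals of the FGF, Hedgehog, Wnt and BMP families, and the regulators of both layers are often flanked by long stretches of non-coding DNA.

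Some of the intergenic regions could be shown as sequence, because starts of long non-coding RNAs (lncRNAs) lay inside them. Of the regions, 23.1% overlapped an annotated lncRNA gene, against 24.8% of regions in gene deserts and 7.88% of regions inside genes. A RefSeq lncRNA start window (250 bases before to 50 after the start, build GRCm38.p6) lay wholly inside 690 regions, and in 166 of them the strongest summit of all 4 libraries fell within such a window. The 4 windows below are shown as examples of regions ranking high in every library, with the bases in lower case and matches to any of 12 searched motifs in capitals. They run 5′ to 3′ along the strand of the lncRNA. The A930006K02Rik window is chr16:91464854-91465153 on the plus strand. The other windows are on the minus strand, at chr4:156059753-156060052 for Gm13648, chr2:30652442-30652741 for Gm32316 and chr11:3573189-3573488 for Gm39567.
A930006K02Rik: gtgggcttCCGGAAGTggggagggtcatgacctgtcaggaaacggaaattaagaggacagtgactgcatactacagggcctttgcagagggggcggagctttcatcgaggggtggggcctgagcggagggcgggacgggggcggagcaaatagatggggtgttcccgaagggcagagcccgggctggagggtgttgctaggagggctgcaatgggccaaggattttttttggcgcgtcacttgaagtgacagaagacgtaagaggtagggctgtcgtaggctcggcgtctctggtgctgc
Gm13648: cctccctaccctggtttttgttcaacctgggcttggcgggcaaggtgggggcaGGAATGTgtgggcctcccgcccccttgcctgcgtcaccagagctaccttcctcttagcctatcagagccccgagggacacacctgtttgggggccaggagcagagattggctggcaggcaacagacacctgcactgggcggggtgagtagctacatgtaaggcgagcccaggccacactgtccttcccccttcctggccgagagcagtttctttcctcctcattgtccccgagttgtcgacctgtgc
Gm32316: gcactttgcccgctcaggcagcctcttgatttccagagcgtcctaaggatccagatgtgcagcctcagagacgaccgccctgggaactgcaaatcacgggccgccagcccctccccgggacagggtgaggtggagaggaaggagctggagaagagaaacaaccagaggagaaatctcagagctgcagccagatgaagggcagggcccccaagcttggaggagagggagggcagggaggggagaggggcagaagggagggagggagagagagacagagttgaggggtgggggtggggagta
Gm39567: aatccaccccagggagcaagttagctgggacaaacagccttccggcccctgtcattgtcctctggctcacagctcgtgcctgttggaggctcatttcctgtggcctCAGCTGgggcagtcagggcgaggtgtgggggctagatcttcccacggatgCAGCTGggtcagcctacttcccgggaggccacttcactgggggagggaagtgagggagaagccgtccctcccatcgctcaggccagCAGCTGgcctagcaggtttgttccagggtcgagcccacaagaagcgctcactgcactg

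The A930006K02Rik window held 1 match to the ETS letters CCGGAAGT and lay in a region 17.885 kb from Ifnar1, a subunit of the type I interferon receptor. That region ranked at the 96.9th, 98.2nd, 99.02nd and 98.6th fold percentile in replicates 1 to 4, where the percentile is the rank of the region's strongest peak, by the authors' fold enrichment, among all peaks of the same library. The Gm13648 window held 1 match to the TEAD letters GGAATGT, in a region at the 94.8th, 98.8th, 98.7th and 98.8th percentile. Gm39567 held 3 matches to the E-box letters CAGCTG, in a region 32.163 kb from Smtn, which encodes the smooth muscle protein smoothelin, and Gm32316 held none of the 12 motifs. These ranks were within a few percentiles of each other in all libraries.

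In the 166 regions, 176 start windows held the strongest summit of all 4 libraries, and 166 windows were used for motif counts. Motif letters were counted on both strands in these 166 windows and in the 11575 lncRNA start windows of the RefSeq table. All 32851 start windows, those of protein-coding genes included, were a wider set. E-box letters occurred in 22.3% of the 166, 17.6% of lncRNA windows and 16.3% of all windows. TEAD letters occurred in 9.04%, 4.70% and 3.85%, and the forkhead letters TGTTTAC in 7.23%, 4.84% and 3.65%. ETS letters, at 3.01%, were above the lncRNA windows (1.58%) and below all windows (3.89%). The homeodomain letters TAATTA, at 2.41%, were below both (6.67% and 5.29%). The AP-1 letters TGACTCA stood at 6.63% against 6.20% of lncRNA windows, the GATA letters AGATAAG at 4.82% against 3.78% and the SOX letters ACAATGG at 3.61% against 5.01%. The NKX letters CCACTTGA stood at 1.20% against 0.726%, and the T-box letters AGGTGTGA at 1.20% against 1.503%. The NFI palindrome was found in 0 of the 166 windows, and the CTCF core in 0.602%, against 0.0432% and 0.294% of lncRNA windows. No share was tested, and the NKX and T-box shares rest on 2 of the 166 windows each and the CTCF share on 1. Median GC content was 55.0% in the 166 windows and 48.3% in lncRNA windows, and its part in these shares was not tested. A letter match describes the sequence and is not a bound site.

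Regions holding a lncRNA start window had a median fold percentile of 83.2 (mean over libraries for each region), regions with all summits in the window 88.0, and the 16873 regions with no such window 71.1. The rule did not use lncRNA genes, but wider regions can hold a window more easily, and the part of width in this difference was not tested. Regions with all summits in the window were also chosen by agreement of all 4 libraries on the summit position. The part of that choice in their higher rank was not tested.

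MicroRNA genes were also found inside the regions: 33 RefSeq hairpins of 1005 lay wholly within 23 of them. A miRNA gene was overlapped by 0.171% of the regions, against 0.213% of regions inside genes and 0.151% of regions in gene deserts. Holding a miRNA gene was thus rare and not particular to these regions. The mature sequences below belong to hairpins in 4 such regions and are shown because 2 of these regions hold family members with shared seeds and the other 2 ranked high in every library. The seed, bases 2 to 8, is in capitals.
mmu-miR-17-5p: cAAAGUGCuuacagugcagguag
mmu-miR-20a-5p: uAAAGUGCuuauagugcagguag
mmu-miR-19a-3p: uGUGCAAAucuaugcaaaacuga
mmu-miR-19b-3p: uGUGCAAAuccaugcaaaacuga
mmu-miR-18a-5p: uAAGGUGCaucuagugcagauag
mmu-miR-92a-3p: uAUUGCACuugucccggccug
mmu-miR-200a-5p: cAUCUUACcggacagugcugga
mmu-miR-200b-5p: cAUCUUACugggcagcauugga
mmu-miR-200a-3p: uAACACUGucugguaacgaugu
mmu-miR-200b-3p: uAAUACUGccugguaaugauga
mmu-let-7i-5p: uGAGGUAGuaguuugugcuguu
mmu-miR-322-5p: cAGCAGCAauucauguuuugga

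The region at chr14:115039672-115044585 contained 6 hairpins of the miR-17-92 cluster, a set of miRNAs known to promote growth of lung epithelial progenitors. Its fold enrichment was 96.4, 30.1, 26.2 and 31.1 in replicates 1 to 4, at the 95.7th, 96.6th, 97.0th and 97.4th percentile. Within it, miR-17-5p and miR-20a-5p share the seed AAAGUGC, and miR-19a-3p and miR-19b-3p share GUGCAAA. It lay 47.615 kb from Gpc5, and no other intergenic region of the rule lay within 12500 bp of it.

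The region at chr4:156054700-156056484 contained Mir200a and Mir200b, miRNAs known for maintaining epithelial identity, whose 5p arms share the seed AUCUUAC. Its fold percentile was 34.2, 78.1, 82.9 and 84.5 in replicates 1 to 4, so replicate 1 was far below the others. The Gm13648 window lay in another region of the same row of 6. The let-7i region, chr10:122984678-122988820, was high in every library (94.0th, 95.6th, 97.1st and 95.4th percentile), as was the region at chrX:53052027-53055183 with Mir322 and Mir503 (90.9th, 95.9th, 96.2nd and 96.5th).

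The libraries were unequal. Replicates 1 to 4 had 134446, 186141, 211575 and 192776 peaks on the chromosomes used, with median fold 8.99, 3.86, 3.90 and 3.73, and peak names contained the French for fresh in replicate 1 and the word frozen in the others. For replicate 1 the peak names conflict with the snap-freezing stated in the labels, and which of them holds could not be settled. Reads per library were not analysed here, so depth is unknown. With the same position and width rule, but from each library's own peaks, there were 37904, 54078, 62047 and 58617 intergenic regions, and 51.5%, 40.0%, 35.4% and 35.1% of these peaks lay in the 17563 shared regions. Without replicate 1, 25333 regions met the rule, the most when any 1 library was left out. As a check of the tissue, gene ends were open in every library for 6 of 6 lung epithelial markers, 5 of 5 mesenchymal, 2 of 2 mesothelial, 2 of 3 endothelial (not Pecam1), 1 of 3 blood, 1 of 2 neural and 0 of 2 liver markers (Alb and Afp). Here and below, gene ends were called open where a region open in every library lay within 1 kb of either end of the gene, and not of its start alone.

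Intergenic regions were of moderate size. Like regions inside genes, in deserts and at gene ends, they mostly ranked above the middle of each library's peaks. The rule favours such ranks, because each region held a peak of every library and was ranked by its strongest peak. The width of intergenic regions had a median of 1219 bp (quartiles 825 and 1890.5 bp). Median fold percentile was 65.2, 76.7, 79.0 and 76.4 in replicates 1 to 4, and 9820 regions (55.9%) were lowest in replicate 1. Replicate 1 also had the shortest list of peaks. Of its own intergenic peaks 51.5% lay in the shared regions, against 40.0%, 35.4% and 35.1% in replicates 2 to 4. The part of list length and make-up in its lower ranks was not tested. In 1205 regions every library was above the 90th percentile, and in 450 every library was below the 50th. The strongest summits of all 4 libraries fell within 100 bp of each other in 33.7% of intergenic regions, 32.7% of regions inside genes, 36.4% of desert regions and 49.6% of gene-end regions.

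The limits of the rule cut through a continuum. The 151 regions 2.0 to 2.2 kb from a gene had a median percentile of 68.8, and the 150 otherwise like regions 1.8 to 2.0 kb away 69.2. At the outer limit the values were 73.2 for 534 regions at 90 to 100 kb and 70.5 for 453 at 100 to 110 kb. At the width limit they were 91.7 for 187 regions of 4500 to 5000 bp and 91.5 for 126 of 5000 to 5500 bp.

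Intergenic regions ranked below gene-end regions in every library and close to the other distal classes. Gene-end regions were also wider (median 2298.5 bp against 1219 bp), and the part of width in their higher rank was not tested. Gene-end regions had median percentiles of 82.7, 90.9, 91.9 and 91.3 in replicates 1 to 4, and the difference, intergenic minus gene-end, was −14.9 ± 1.99 percentile points (SD, n = 4; two-sided exact sign-flip permutation p = 0.13, adjusted p = 0.3125 over 5 comparisons). This p is the smallest that 4 libraries allow (2 of 16 sign patterns), so no comparison here could pass 0.05. Regions inside genes had medians of 65.2, 75.2, 77.2 and 76.4, and the difference was 0.853 ± 0.989 points (n = 4, exact p = 0.5, adjusted 0.833). Against gene deserts (72.2, 76.7, 77.2 and 73.9) it was −0.672 ± 4.32 points (n = 4, exact p = 1), lower in replicate 1 and higher in replicates 3 and 4. The difference from regions inside genes was 2.43 points without replicate 1, 0.00127 at a −log10 q of at least 5 and 0 when 100 bp had to lie under peaks of all 4 libraries, and the difference from deserts turned positive when replicate 3 (0.214) or replicate 4 (0.245) was left out.

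**Figure D1:**
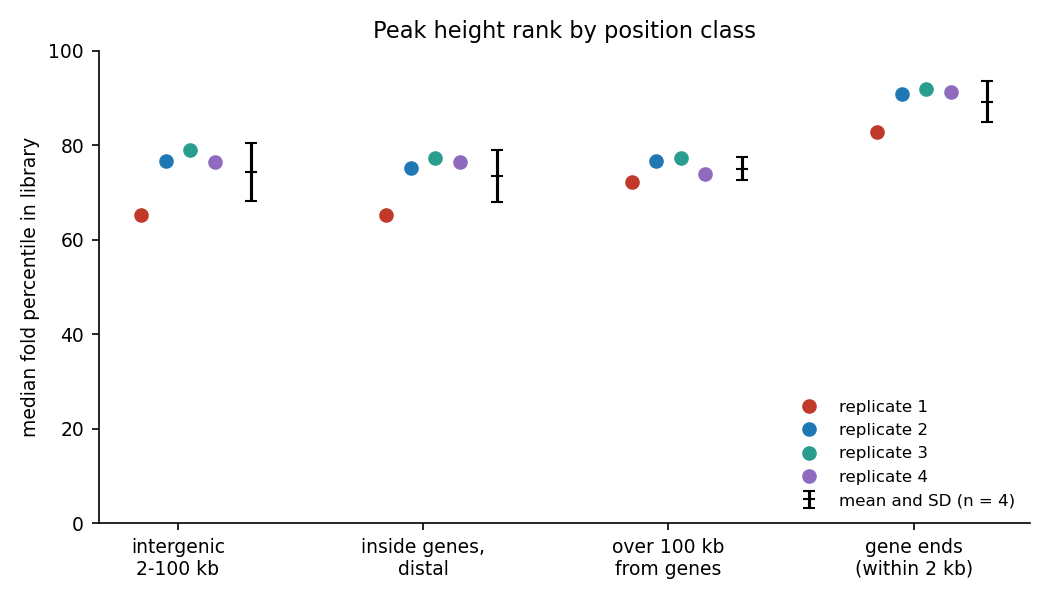
Median fold percentile of the regions of each position class (x axis) in each library (y axis, 0 to 100), with 1 point per replicate and the mean ± SD over 4 libraries in black. Gene-end regions lie above the intergenic regions in all 4 libraries, and replicate 1 is the lowest point of each class.

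Open regions were denser close to genes. The median distance to the nearest gene end was 20527 bp (quartiles 8736 and 43179.5 bp), but the DNA available also falls with distance. Per Mb of eligible DNA, meaning DNA between neighbouring genes 2 to 100 kb from an end, there were 27.9 regions at 2 to 5 kb, 26.5 at 5 to 10 kb, 25.3 at 10 to 20 kb, 22.8 at 20 to 50 kb and 17.4 at 50 to 100 kb. In deserts beyond 100 kb there were 7.14 per Mb. Density therefore fell at each step away from genes, with no gap at any distance.

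Each library's own peaks fell with distance too, but to different degrees. Density at 2 to 10 kb was 1.56 times that at 50 to 100 kb for the shared regions, and 1.29, 2.11, 2.25 and 2.09 times in replicates 1 to 4 alone (mean 1.93 ± 0.437, SD, n = 4). Replicate 1 had the flattest decline: from 56.7 peaks per Mb at 2 to 5 kb to 42.4 at 50 to 100 kb, against 139 to 52.7 in replicate 3.

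Peak height showed no common relation to distance in the shared regions. In replicate 1 the median percentile went from 60.2 at 2 to 5 kb to 69.6 at 50 to 100 kb, while replicate 2 stayed at 76.7 in every interval, replicate 3 went from 80.5 to 79.0 and replicate 4 from 78.4 to 76.4. For regions at 2 to 10 kb minus those at 50 to 100 kb the difference was −1.26 ± 4.93 percentile points (n = 4, two-sided exact p = 1). It was −8.54 in replicate 1, 0 in replicate 2, 1.499 in replicate 3 and 1.99 in replicate 4, and the mean became 0.139 when replicate 4 was left out. Without replicate 1, when the regions were chosen from the other 3 libraries alone, it was −4.43 (n = 3, exact p = 0.25, the smallest possible), lower near genes in all 3, so the choice of libraries changes this comparison. The regions near genes were wider, with a median of 1350 bp at 2 to 5 kb and 1128 bp at 50 to 100 kb.

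**Figure D2:**
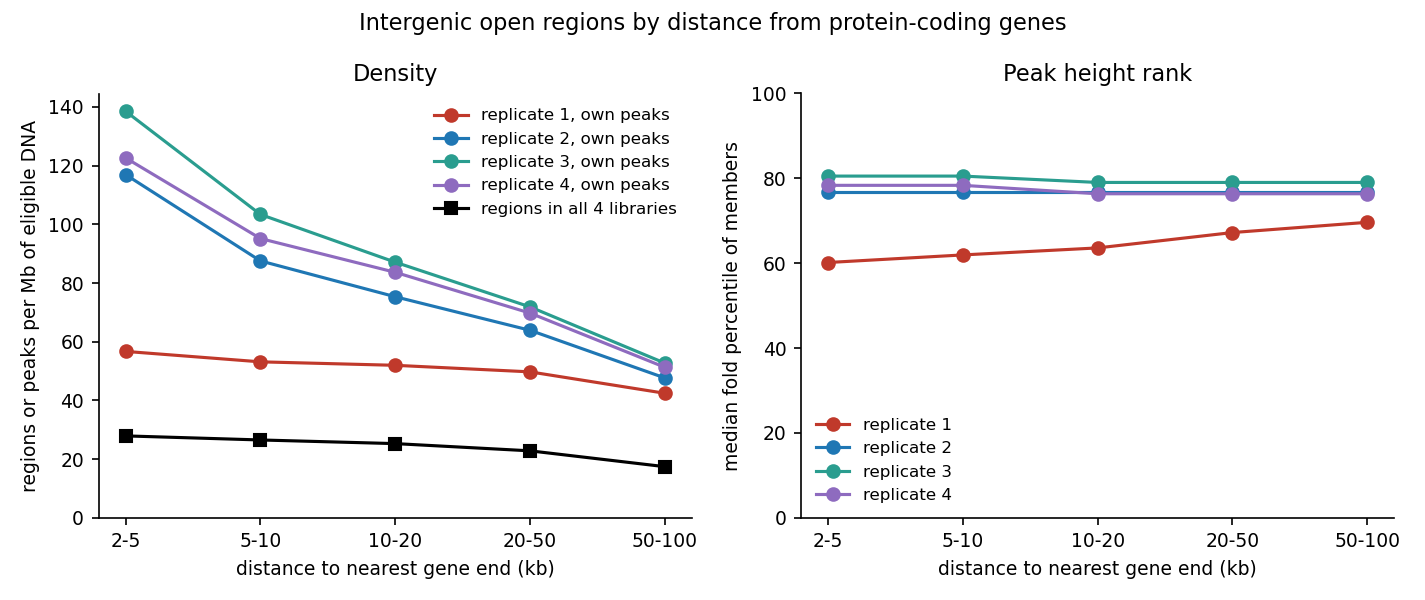
Left, density per Mb of eligible DNA (y axis) by distance from the nearest gene end (x axis, kb) for regions in all 4 libraries (black squares) and for each library's own intergenic peaks; right, median fold percentile of the shared regions in each library. The black line falls from 27.9 to 17.4 per Mb, and in the right panel the line of replicate 1 rises from 60.2 to 69.6.

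The side of the gene made little difference to density. Strand was known for the nearest gene of 76.9% of the regions, and 53.5% of those lay nearest a 5′ end (46.8% when all annotated genes, non-coding ones included, were used). Eligible DNA near 5′ ends was also longer, so density was 22.3 per Mb on the 5′ side and 22.8 on the 3′ side, a ratio of 0.980 (own peaks 0.979, 0.978, 1.03 and 1.03 in replicates 1 to 4). At 2 to 5 kb the ratio was 0.837 for shared regions. Own peaks gave 0.889, 1.04, 1.21 and 1.22 there, so the libraries differed in direction and no side preference can be read from this interval. By the orientation of the flanking genes, density was 23.4 per Mb between divergent genes, 21.6 between genes in tandem, 22.1 between convergent genes and 24.3 in the gaps where a strand was unknown, which held 6208 regions.

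The regions were unevenly spread over the stretches between genes. There were 19442 such gaps between neighbouring protein-coding genes, and 15063 were long enough to hold eligible DNA. Of these, 5874 (39.0%) held at least 1 region, and 282 gaps with 10 or more held 21.8% of all regions. The gaps 1600014C23Rik-Vegfa and Rad51b-Zfp36l1 held 27 regions each, Slc25a33-Spsb1 and Slc45a1-Errfi1 26 each and Hs1bp3-Rhob 25. Vegfa encodes the growth factor that directs blood vessel formation, Zfp36l1 an RNA-decay factor, Errfi1 an inhibitor of the EGF receptor and Rhob a small GTPase.

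The longest gaps held few regions within their eligible margins. Pcdh20-Pcdh9 and Cntnap5b-Cdh20, which lie between cadherin-type and neural adhesion genes, held 0 regions in 196 kb of eligible DNA each. Of all gaps with eligible DNA, 61.0% held no region. Celf4-Pik3c3 and Tenm3-Aga held 1 each, and Olfm4-Pcdh17 held 3. Per 100 kb of eligible DNA these were 0.510, 0.510 and 1.53 regions, against 2.29 for all genes. Own peaks in these 5 gaps numbered 0 to 5 per library, so the low counts were present in each library separately. A crowded gap with less eligible DNA, Slc25a33-Spsb1 (118.015 kb), had 33, 48, 55 and 52 own peaks in replicates 1 to 4.

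Intergenic regions lay close to one another. The nearest other region was a median of 6229 bp away, and 64.5% had another within 12500 bp. The share was 68.1% among regions inside genes and 51.6% among desert regions, each measured within its own class. Regions of the same gap linked at 12500 bp or less formed 9886 chains, of which 6246 were solitary regions (35.6% of all regions). There were 499 chains of at least 5, which held 19.7% of the regions, and 67 of at least 10. These values depend on replicate 1: without it, 74.3% had a neighbour within 12500 bp and there were 1143 chains of at least 5.

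Regions in chains were wider and ranked slightly higher than solitary ones. Median width was 1055 bp for solitary regions and 1478 bp in chains of at least 5. Median percentiles in chains of at least 5 were 67.2, 78.1, 80.5 and 78.4 in replicates 1 to 4, against 64.4, 76.7, 79.0 and 76.4 for solitary regions. The difference was 1.93 ± 0.647 points, higher in 4 of 4 libraries (two-sided exact sign-flip p = 0.13, the smallest possible; adjusted p = 0.3125). It was 0 when replicate 1 was left out and regions of the other 3 libraries were chained anew.

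The largest chain had 26 regions across 113.675 kb between Slc25a33, a mitochondrial nucleotide carrier, and Spsb1, an adaptor of a ubiquitin ligase. Its 26 regions covered 38.3% of the span, began 6.304 kb from Slc25a33 and ended 2.036 kb from Spsb1, which almost filled the gap. Their mean percentiles over libraries ran from 23.5 to 93.2, so the chain mixed low and high regions. The median in it was 60.6, 75.2, 75.02 and 76.9 in replicates 1 to 4, lowest in replicate 1.

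Of the next largest chains, Hs1bp3-Rhob held 25 regions over 127.967 kb. Slc45a1-Errfi1 and Arf6-Gm46353, the former beside the EGF receptor inhibitor and the latter beside a small GTPase of membrane traffic, held 22 each, and Gm5294-Pdgfa held 21 over 142.995 kb. Pdgfa is the ligand through which lung epithelium acts on fibroblasts that carry Pdgfra. Chains of 17 lay between Mgat5b and Sec14l1 and between Ly86 and Rreb1.

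The Col6a2-Col6a1 chain had the highest ranks of the 12 largest chains. These genes encode collagen VI chains of the extracellular matrix, and 16 regions covered 43.5% of 74.225 kb between them. Median percentile was 86.8, 88.6, 89.99 and 89.8 in replicates 1 to 4, with all libraries close together. By contrast, the 16 regions of the Xpnpep1-Add3 chain had medians of 55.2, 73.1, 73.1 and 72.3. The Cdk15-Fzd7 chain, beside a Wnt receptor, had 15 regions, and the Slc44a3-4930432M17Rik and Nfe2l2-Agps chains had 14 each. Nfe2l2 encodes the regulator of the antioxidant response.

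**Figure D3:**
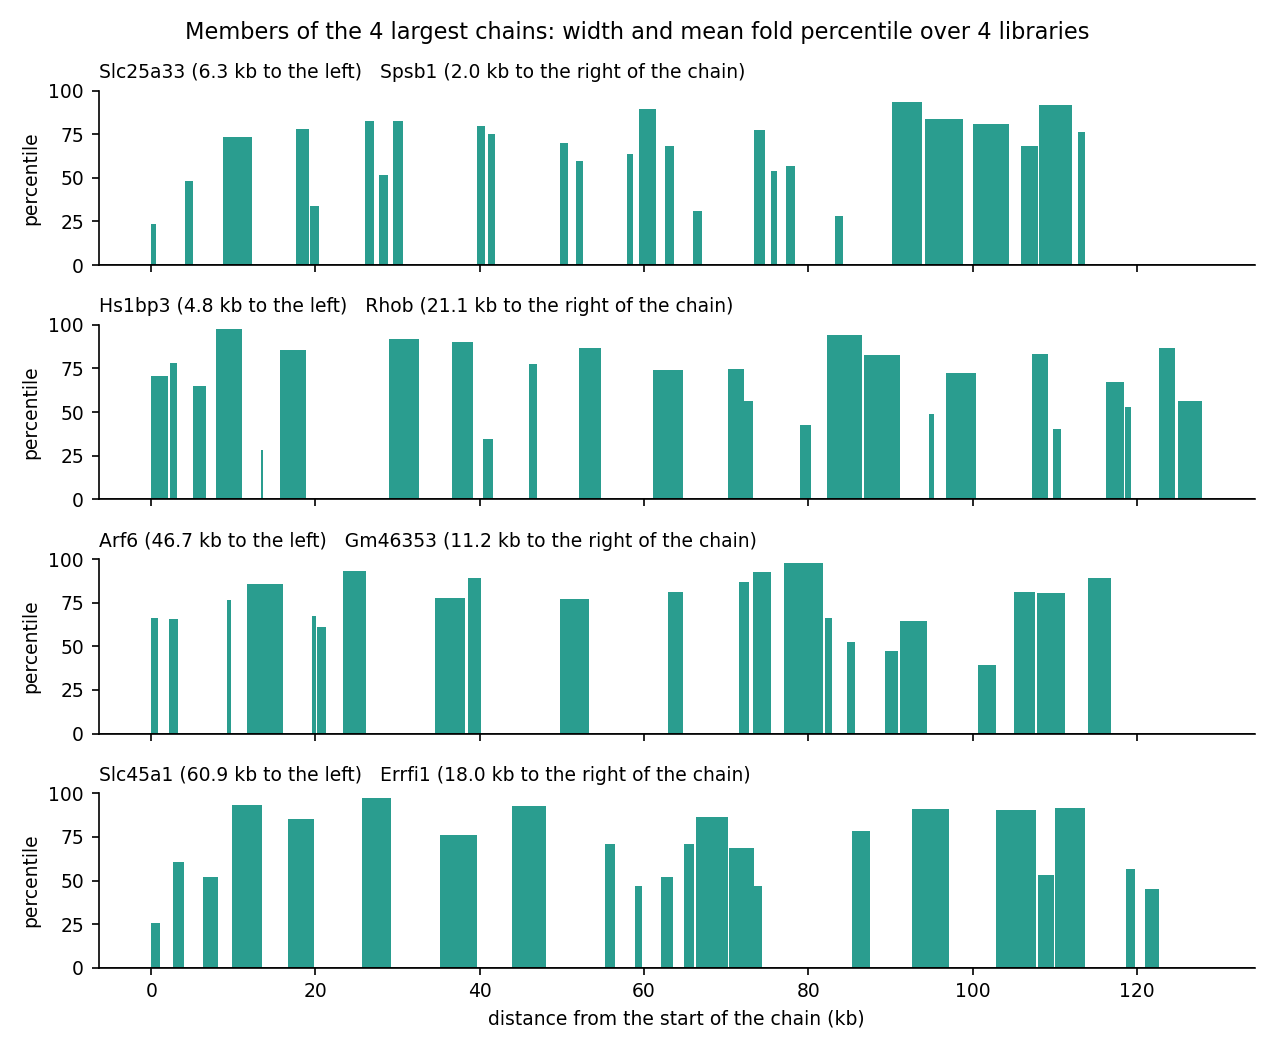
Each of the 4 panels is 1 of the 4 largest chains, with distance from the start of the chain in kb (x axis) and mean fold percentile over 4 libraries (y axis, 0 to 100). Each bar is 1 region, drawn to its width, and low and high regions stand side by side in each chain, from 23.5 to 93.2 in Slc25a33-Spsb1.

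Counting each region for its nearest gene, 7002 of 21631 protein-coding genes (32.4%) were nearest to at least 1 region, 927 (4.29%) to at least 5 and 175 (0.809%) to at least 10. Among genes with eligible DNA, those with more regions had open gene ends more often: 90.3% with 10 or more regions, 89.0% with 5 to 9, 78.8% with 1 to 4 and 58.8% with none. The share was 84.2% for the 3256 genes with no eligible DNA and 69.6% for all genes. The groups with eligible DNA also differed in eligible DNA, with medians of 117.374, 98.0, 37.1 and 12.4 kb, and the part of that difference was not tested.

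Hes1, a repressor that Notch signalling switches on, was nearest to 26 regions, the most of any gene. The regions lay 11.857 to 95.572 kb from it, and it had 40, 64, 75 and 70 own peaks in replicates 1 to 4. Its highest-ranking region, chr16:30007529-30010772, had fold enrichments of 113, 40.0, 29.2 and 31.7, at the 96.7th to 97.9th percentile. Rbpj, the DNA-binding partner of the cleaved Notch receptor, was nearest to 19 regions, with 21, 32, 40 and 42 own peaks. It was the only one of the 20 genes with most regions whose gene ends were not open in every library.

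Pja1, a ubiquitin ligase gene on the X chromosome, was nearest to 24 regions, and Pkdcc, a secreted kinase needed for skeletal and lung development, to 22. Zfp516 had 21, Ly86 and Katnal1 20 each, and Gm15319 19. Gm15319 was the exception among these genes in that replicate 1 had the most own peaks, 74 against 42, 53 and 55. Rybp, a Polycomb component, Vegfa and Gm30733 had 18 each, and Irf2bp2 and Irs2, the latter an adaptor of insulin signalling, had 17 each.

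Rad51b, Trabd2b, Sik1, Spring1, Tbx3, Spsb1 and Bcas1 had 16 each. Tbx3 encodes a T-box factor of the lung mesenchyme. When replicate 1 was left out, 15 of these 20 genes remained among the 20 with most regions. Their counts do not allow for eligible DNA. Per 100 kb of it, the 20 genes ran from 8.91 regions (Irs2) to 23.1 (Spsb1), with Hes1 at 13.7. The order of the genes is thus different on that scale. For Vegfa the highest-ranking region lay 27.919 kb from the gene at chr17:45985554-45989073, with fold enrichments of 197, 34.8, 39.6 and 33.9.

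**Figure D4:**
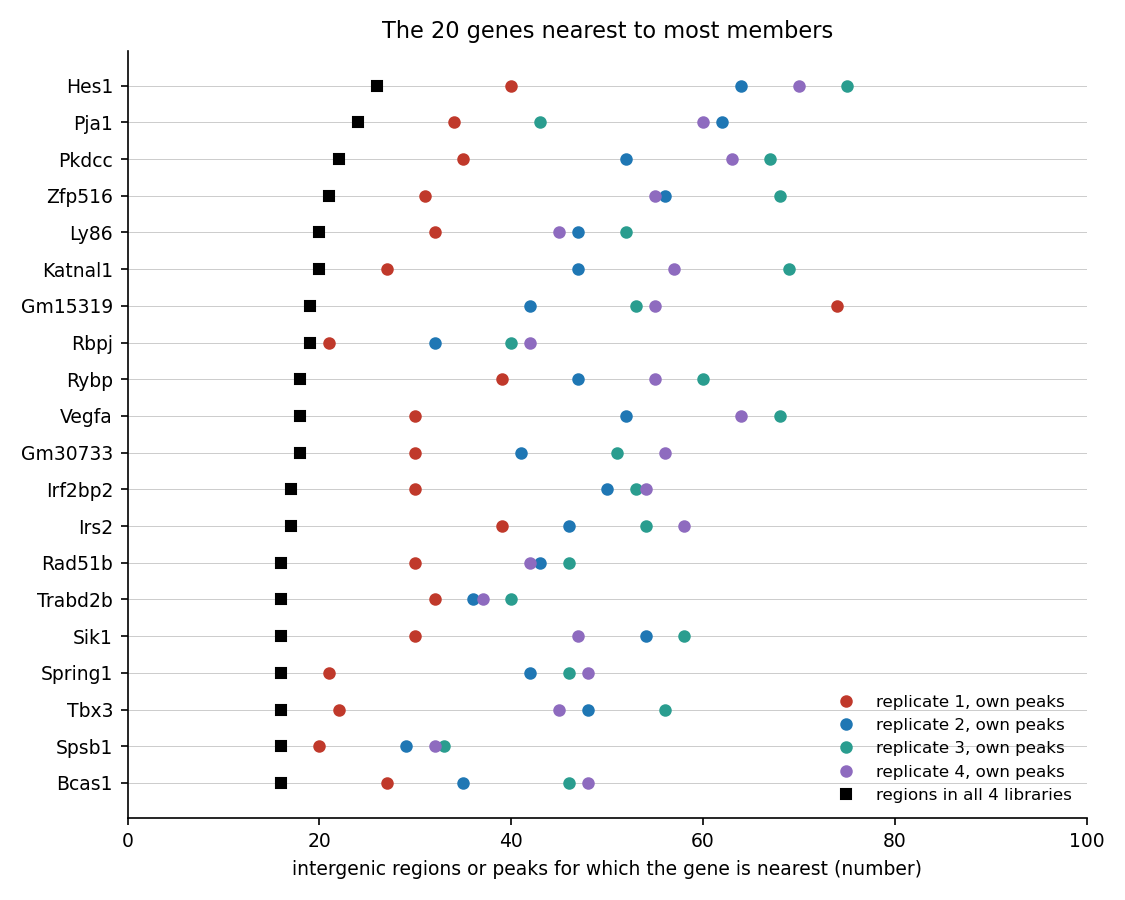
Number of intergenic regions or peaks (x axis) for which each of the 20 genes with most shared regions is the nearest gene (y axis): black squares are regions in all 4 libraries and coloured points each library's own peaks. Replicate 1 has the lowest own count for every gene but Gm15319, where its 74 is the highest.

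Genes of lung epithelium regulation were often flanked by many regions. Of 33 such genes, 32 were nearest to at least 1 region and 17 (51.5%) to at least 5, where 4.29% of all genes had at least 5, and the list's median was 5 regions against 0. The lists were chosen with earlier results of these data known, and no list was tested against other genes. Listed genes also had more eligible DNA (a median of 117.895 kb here against 14.8575 kb for all genes). Per 100 kb of eligible DNA the list had 4.34 regions and all genes 2.29, so the difference was smaller on that scale.

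Fgfr2, the epithelial receptor for FGF10, had 14 regions, Mycn, a factor of proliferating tip progenitors, 12 and Foxa2, a forkhead factor of endoderm, 12. Foxa2's regions ranged from the 46.2nd to the 92.4th mean percentile. The highest, chr2:148017697-148020394, had fold enrichments of 41.8, 21.3, 15.6 and 14.6. Nkx2-1, which specifies lung identity, was nearest to 7 regions, 3.187 to 44.38 kb away. Its highest, chr12:56522925-56526814, had folds of 14.1, 14.6, 11.1 and 11.5 but percentiles of 66.6, 91.8, 91.2 and 90.8, lower in replicate 1.

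Sox9, a factor of distal tips and of cartilage, was nearest to 7 regions and Gata6, an endodermal GATA factor, to 9. Shh, the epithelial Hedgehog ligand, was nearest to 7 regions, 4.384 to 95.25 kb away. The 2 highest of these lay at 33.271 kb (fold 67.8, 24.6, 18.9 and 21.8) and at 95.25 kb (78.1, 18.5, 16.7 and 12.1). Shh thus had regions above the 90th percentile in every library at both distances.

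In the mesenchyme list, 11 of 34 genes (32.4%) were nearest to at least 5 regions, and 18 without replicate 1, when 7.25% of all genes were. The median eligible DNA was 108.984 kb, and per 100 kb of it the list had 3.86 regions against 2.29 for all genes, a smaller difference than in the count of genes. Tbx3 with 16 and Tbx5 with 13, neighbouring T-box genes, led the list, followed by Foxl1 with 10. Tbx5 had 18, 24, 31 and 28 own peaks, and its highest region, chr5:119775946-119779775, had folds of 122, 25.4, 21.2 and 22.4. Foxf1, the forkhead factor of lung mesenchyme, was nearest to 9 regions, the closest 31.143 kb away, and Tbx4 to 4.

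Fgf10, the mesenchymal ligand that draws out epithelial buds, was nearest to 2 regions in 196 kb of eligible DNA. Their folds were 26.3, 5.80, 3.90 and 4.98 for the region 30.565 kb away and 21.2, 3.86, 3.90 and 4.67 for the one at 35.867 kb. Own peaks near Fgf10 were 9, 3, 5 and 5, highest in replicate 1. Hoxa5 and Sftpc, the surfactant protein C gene, were nearest to 0 regions because they had 0 and 0.2325 kb of eligible DNA, and among 39 HOX genes, which stand in dense clusters, 1 had at least 5 (Hoxb1 with 5). That was 2.56% of the HOX list, against 4.29% of all genes. Per 100 kb of eligible DNA, however, the HOX list had 3.04 regions and all genes 2.29.

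Signalling lists were also above the share of all genes. At least 5 regions were found for 7 of 16 Hedgehog genes, 8 of 21 FGF genes, 9 of 32 BMP and TGF-beta genes and 7 of 35 Wnt genes. Without replicate 1 the counts were 7, 11, 15 and 11. Their median eligible DNA was 69.1, 67.2, 89.9 and 98.0 kb, and per 100 kb they had 4.53, 3.95, 4.77 and 3.49 regions, so on that scale they were nearer to the 2.29 of all genes. Gas1 (10 regions) and Boc (8) encode co-receptors for Hedgehog ligands. Spry2 (7) and Spred2 (6) encode inhibitors of the FGF pathway, and Smad6 (15), Tgfbr2 (14) and Tgfbr3 (11) an inhibitor and receptors of the BMP and TGF-beta pathways. Fzd7 (14) is a Wnt receptor, Axin2 (12) a negative feedback target and Wnt4 (11) a ligand.

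The highest-ranking Gas1 region, chr13:60096535-60098077, had fold enrichments of 40.2, 57.1, 61.8 and 66.9. Replicate 1, which had the highest median fold of all libraries, was the lowest there, at the 87.4th percentile against 98.96, 99.5 and 99.5. The Notch list had 2 of 20 genes with at least 5 regions (Hes1 and Rbpj), and Notch1 had 4, but per 100 kb of eligible DNA it was the densest list, at 7.15. Hes1 and Rbpj held 26 and 19 of the list's 65 regions. In the retinoic acid list 1 of 18 genes, Rxra with 9 regions, had at least 5, and the list had 3.52 regions per 100 kb.

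Matrix genes were the densest after Notch, with 6.17 regions per 100 kb, and 13 of 30 were nearest to at least 5. Col6a3 had 12, and Sparc, a collagen-binding protein, and Col6a1 had 9 each. The highest Sparc region, chr11:55427617-55430364, ranked at the 98.4th, 98.5th, 98.7th and 98.1st percentile. Endothelial genes had 7 of 26 with at least 5, led by Cdh5 (11), the adhesion molecule of endothelial junctions, and Erg (8), an endothelial ETS factor. Per 100 kb of eligible DNA the endothelial list had 4.42 regions, close to the 4.34 of the lung epithelium list.

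Lists of smooth muscle and pericyte genes (1 of 20; Smtn with 8), mature lung epithelium products (2 of 20; Hopx and Lpcat1 with 7 each), mesothelium (1 of 12; Podxl with 10), cartilage (2 of 18; Sox6 with 10 and Sox9) and neural genes (1 of 20; Gfra2 with 11) had smaller shares than the lung epithelium and mesenchyme lists. Per 100 kb of eligible DNA, however, the first 3 had 4.85, 4.69 and 4.44 regions, above the 4.34 of the lung epithelium list, and cartilage and neural genes 2.40 and 2.13. The blood list had 1 of 24 (Runx1 with 8), close to the 4.29% of all genes. Regulators of other organs had 4 of 44 (9.09%), led by Pitx1 with 10. Per 100 kb the blood list had 2.79 regions and regulators of other organs 2.41, against 2.29 for all genes. Products of liver, skeletal muscle and photoreceptors and housekeeping genes had 0 of 20, 0 of 20, 0 of 20 and 0 of 25. Their median eligible DNA was also short, 17.1, 5.52, 4.36 and 4.56 kb, and per 100 kb they had 1.71, 2.19, 2.73 and 4.76 regions, so housekeeping genes were not sparse on that scale. Without replicate 1, 2 liver genes and 1 housekeeping gene had at least 5.

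**Figure D5:**
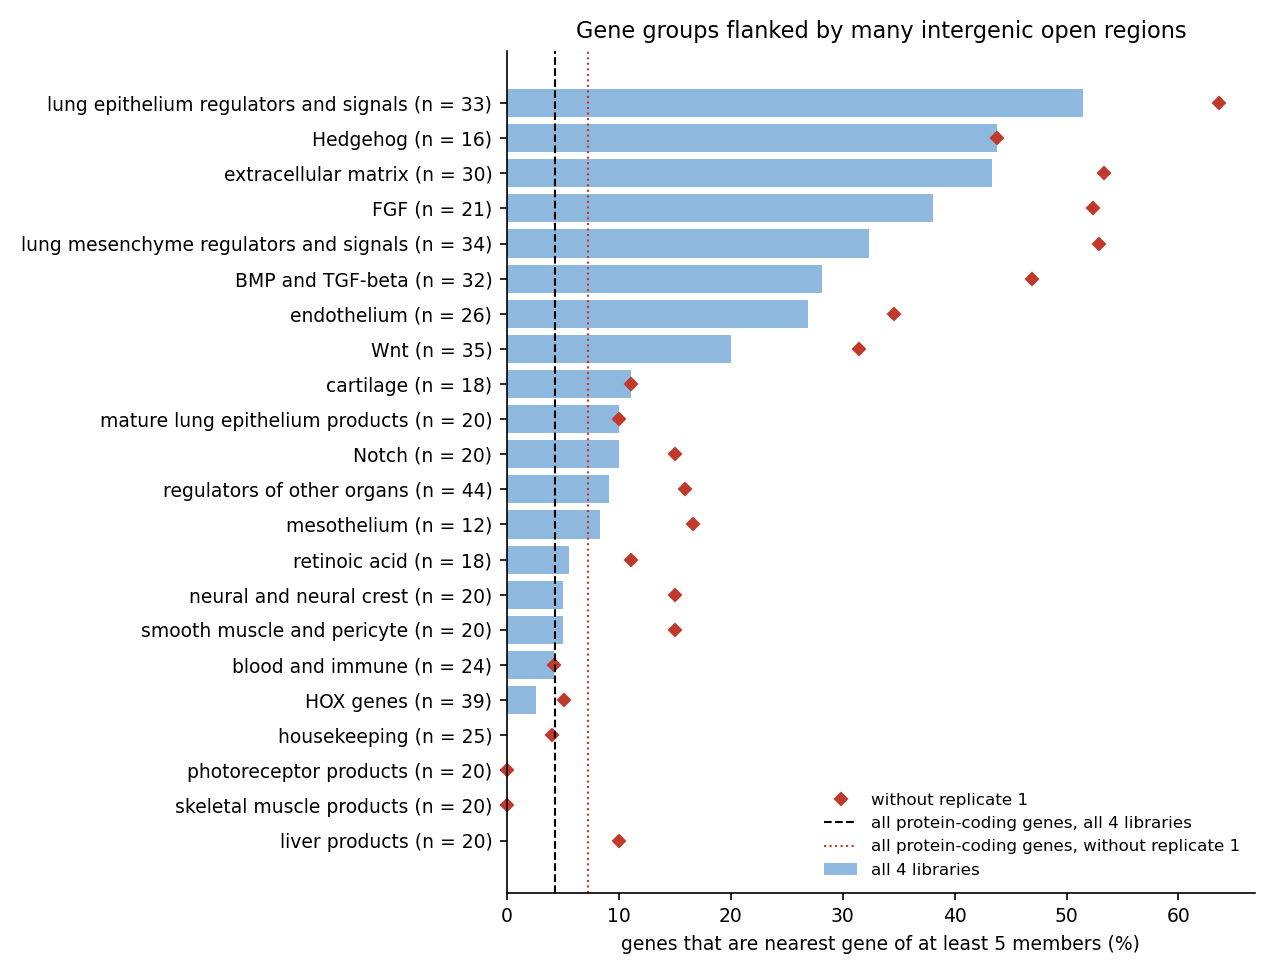
Percent of genes in each list (y axis, with the number of genes) that were nearest to at least 5 intergenic regions (x axis): bars use all 4 libraries, diamonds leave out replicate 1, and dashed and dotted lines give all protein-coding genes (4.29% and 7.25%). The lung epithelium list has the longest bar (51.5%), and liver, skeletal muscle, photoreceptor and housekeeping lists are at 0 with all 4 libraries.

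The highest-ranking regions were a separate set. Of the 10 with the highest mean percentile, 5 were the last peak of their chromosome and lay beyond its last gene (nearest genes Mrgprd, Gm45871, Tmem196, B230307C23Rik and Gm14496), whereas 20 regions of all 17563 lay beyond a last gene. The top region, chr1:24611535-24616179 between Col19a1 and Lmbrd1, had folds of 3545, 2090, 1704 and 1667, above the other 9 in every library. Single regions near Gtpbp4 (fold 644, 485, 362 and 293) and Zfp825 (494, 685, 690 and 756) were also among the 10. No peaks were removed here for lying in repeated sequence or at chromosome ends, and the part of read mapping in these ranks was not tested.

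The remaining 2 of the 10 lay near genes of lung epithelium and matrix. A region 50.371 kb from Wnt7b, an epithelial Wnt ligand of the growing lung, at chr15:85632193-85636884, had folds of 410, 129, 124 and 138, above the 99.9th percentile in every library. A region 5.964 kb from Serpinh1, the collagen chaperone HSP47, at chr7:99359204-99363205, had folds of 467, 127, 111 and 94.6. Replicate 1 had the highest fold in both, as it did in median fold over all its peaks.

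The X chromosome had the fewest regions, 371, or 5.82 per Mb of eligible DNA against 24.4 on the autosomes together. Chromosome 11 had the most per Mb, 36.1, and chromosome 7 the fewest among autosomes, 19.2. Own peaks on X differed between libraries, at 15.1, 40.3, 13.5 and 30.7 per Mb in replicates 1 to 4, against 52.5, 73.3, 87.0 and 80.6 on autosomes. A region had to hold a peak of every library, so X was counted through its sparsest libraries, replicates 1 and 3. The 24 regions near Pja1 were 24 of the 371 on that chromosome, and the cause of the differences on X was not tested. Leaving out X kept 17192 regions and a share of 26.5%.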

How the data were processed

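Peak lists of 4 ATAC-seq libraries were used as deposited. The submitters' processing notes list build mm10, MACS3 3.0.1, Bowtie2 2.5.2, FastQC 0.12.1, bedtools 2.31.0, deepTools, SAMtools 1.18 and Trim Galore. How they were set, whether duplicates were removed and whether reads were shifted for the Tn5 cut is not given in the sources used here. The deposited lists held 1 peak per line, with its position, summit offset and fold enrichment, a linear ratio made by the authors. The authors also gave each peak −log10 p and q values; −log10 q served for 1 stricter setting, and the deposited score was not used.

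Merging, classes, distances and percentiles were computed with Python 3.11.15, numpy 2.4.6 and pandas 2.3.3, and figures drawn with matplotlib 3.10.9. Classes were compared by the rank of folds within a library; raw folds are also given per library, and their levels differ between libraries. Gene positions and printed sequences came from RefSeq, build GRCm38.p6 (mm10). Of 21631 protein-coding genes, 79.9% had a known strand. Symbols matched all 521 distinct genes in 22 lists. Assembly gaps were not removed from eligible DNA. Between 1245 and 1814 peaks per library on other contigs, and 57 to 103 on Y, were left out.

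Classes were compared by two-sided exact sign-flip permutation tests over within-library differences, adjusted by the Benjamini-Hochberg method over 5 comparisons. Scripts were tested on simulated data: 0 of 812 simulated regions were put in a wrong class. Named genes were the 20 nearest to most regions, the 3 leading genes of each list, those flanking the 12 largest chains, the 5 longest and 5 fullest gaps and the 10 highest regions, and 11 fixed lung genes. Printed sequences and other examples beyond these were chosen after their values were seen. The members and lists were chosen with earlier results of these data known. Alternatives were a stricter q, 3 of 4 libraries, each library left out, lists of equal length, 100 bp under peaks of all 4 libraries, other distance, width and linking limits, and distances to all annotated genes.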

Additional observations from a re-analysis of the deposited data

Results flagged for a closer look

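Replicate 1 stood apart. Of 72 sets of 4 library values checked, 11 had a lone library beyond Dixon's limit, and all 11 were replicate 1; chance flags about 1 set in 20, and the sets share libraries. The values of replicate 1 were a median fold of 8.99, a median distance of its own intergenic peaks of 22625.5 bp, and a near-over-far density ratio of 1.29. Its median percentile, a rank within its own shorter list, was 60.6 in the Slc25a33-Spsb1 chain, 68.7 in Arf6-Gm46353 and 55.2 in Xpnpep1-Add3. Own peaks numbered 17 in Cdk15-Fzd7, 18 in Nfe2l2-Agps and 30 near Irf2bp2. Fold was 410 for the highest region near Wnt7b and 467 for that near Serpinh1. What sets replicate 1 apart was not tested. Fresh or frozen preparation, which the peak names and labels give differently for replicate 1, cannot be told apart from other traits of that library.

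Peaks outside the chromosomes used were also present: every library had at least 1245 on other contigs, and the highest count on Y was 103, in replicate 3.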

How the results depend on the processing

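Of 189 values recomputed under an alternative, 151 kept their direction (differences) or stayed within the spread or the 1.5-fold limit (levels and counts), 33 moved and 5 reversed. A −log10 q of at least 5 gave 11583 regions (24.6% of those open in every library), 54.6% with a neighbour within 12500 bp, 216 chains of at least 5 and 473 genes nearest to at least 5 regions. Asking for 3 of 4 libraries gave 29218 regions (28.0%), 76.5% with such a neighbour, 1382 chains and 1926 genes. Using all annotated genes gave a share of 22.7%, a median distance of 11972.5 bp, a near-over-far density ratio of 3.21, 46.8% nearest a 5′ end, 55.6% with a neighbour, 264 chains and 354 genes. A lower limit of 5 kb gave 23.1%, 24959 bp and 54.3% nearest a 5′ end, and an upper limit of 50 kb gave 21.2%, 14887 bp and 581 genes. Linking at 5 kb gave 45.2% with a neighbour and 160 chains, and linking at 25 kb gave 76.0% and 785. Lists of equal length gave 15196 regions, and 100 bp under peaks of all 4 libraries 15984, where the difference from regions inside genes was 0. Beyond what each setting's construction fixes (fewer or more regions, shorter or longer limits), the cause was not tested.

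Leaving out each library in turn gave 19066 to 25333 regions, shares of 27.0% to 27.6%, median distances of 18132 to 20653 bp, density ratios of 1.53 to 1.96, 53.3% to 53.8% nearest a 5′ end, 66.5% to 74.3% with a neighbour, 604 to 1143 chains, 7252 to 8344 genes nearest to at least 1 region and 1060 to 1569 to at least 5. The upper ends for regions, neighbours, chains and genes came from leaving out replicate 1. Percentile differences ranged from 0.622 to 2.43 against regions inside genes, −16.4 to −14.6 against gene ends, −1.54 to 0.245 against deserts, −4.43 to 0.139 for near minus far and 0 to 3.05 for chains minus solitary regions. The desert difference was 0.214 without replicate 3, 0.245 without replicate 4, 0.352 with no width limit and 0.259 with means in place of medians, an alternative chosen after seeing the data, as was leaving out X. The near-minus-far difference was 0.139 without replicate 4. With 3 libraries the smallest exact p is 0.25.

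No paired analysis was possible because the libraries formed 1 group; classes of regions were compared within each library. Depth is unknown, a lack of a peak in 1 shallow library removes a region, and fold values are discrete, so medians tie.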

Other observations

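Openness at gene ends on the X chromosome also differed between libraries. Peaks at gene ends numbered 0.637, 1.15, 0.770 and 0.988 per X-linked protein-coding gene in replicates 1 to 4, against 1.08, 1.65, 1.77 and 1.57 per autosomal gene. For own intergenic peaks, density on X over that on autosomes was 0.288, 0.550, 0.155 and 0.381. Peaks on Y numbered 57, 58, 103 and 66. Where a region on X was open in every library, its rank was like that of other regions: median percentile on X was 66.6, 79.4, 77.2 and 78.4.

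Other miRNA hairpins lay in regions of differing rank. The region with Mir9-1, a miRNA of neural progenitors, had folds of 2.89, 3.31, 4.46 and 4.05 and percentiles of 0.249, 30.0, 64.6 and 54.7. The region with Mir193a, at the 93.2nd, 96.5th, 96.5th and 96.3rd percentile, was high in every library. Mir34a, a target of p53, lay in a region of a chain of 5 at the 79.0th, 89.1st, 88.8th and 89.8th percentile.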
